A study of Mus musculus with 120 samples.

Results

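The 5 genes described here, Csf2, Il6, Il9, Il3 and Il2, encode secreted cytokines of activated lymphocytes, and they are 5 of the 46078 genes counted in 120 single mouse group 2 innate lymphoid cells (ILC2). They were taken by gene symbol, and for each gene the share of producing cells, the level in the producing cells and the production of several of the genes in the same cell were determined over 12 groups. The genes have been grouped under the name late cytokines, and these data did not follow that name for all of them. Csf2 and Il6 mRNA was already present in most or many cells at the earliest time after the onset of secretion, Il2 mRNA was highest in a cell that had not been stimulated, and the group level of Il9 was highest in the activated cells.

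ILC2 are lymphocytes without antigen receptors that respond to alarm signals such as IL-33 and secrete type 2 cytokines, above all IL-5 and IL-13. Lineage-negative, c-Kit+ and Sca-1+ cells came from the mesentery (tissue labelled as fat) of 20 wildtype C57BL/6 mice, pooled. According to the paper they were kept for several months in culture medium with IL-2, so cells taken before stimulation had also been in IL-2. Cells were then stimulated with IL-2 and IL-33 under live imaging of the secretion of 1 cytokine, IL-13 (IL13 index) or IL-5 (IL5 index). Each index comprised 60 cells in 6 states: 5 cells before stimulation (pre), 11 cells each at 30, 60 and 90 min after the onset of secretion (together the transition cells), 11 activated cells, which were secreting the index cytokine when recovered at a fixed later time, and 11 silent cells, which were not secreting it at that time. The paper describes a pooled source and a culture for these cells, but no label ties a cell to a mouse, a culture or a well. Each group is therefore 1 sample of cells, cells are not replicates, and no test was made between groups. Intervals given below are exact 95% intervals of counting error only.

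The 5 cytokines differ in their targets. Csf2 encodes GM-CSF, which acts on macrophages, granulocytes and their precursors. Il6 encodes IL-6, which acts on B cells, T cells and hepatocytes through gp130. Il9 encodes IL-9, a growth factor of mast cells that also acts on ILC2 themselves. Il3 encodes IL-3, which acts on basophils, mast cells and blood progenitors and shares a receptor chain with GM-CSF. Il2 encodes IL-2, the growth factor of T cells. IL-2 was added both to the culture and to the stimulation here, so that Il2 mRNA was measured in cells that received the protein from outside. Genes of this kind are known for fast transcription after stimulation and for short-lived mRNAs, which carry AU-rich elements built from the pentamer ATTTA in their 3′ untranslated regions (UTRs).

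All 5 genes carried this pentamer, and 36.7% of the 19847 genes with an annotated 3′ UTR carried none. The 3′ UTR of Csf2 held 9 copies in 317 bases, that of Il6 6 in 427, that of Il9 3 in 86, that of Il3 1 in 101 and that of Il2 7 in 581. Per 1000 bases these are 28.4, 14.1, 34.9, 9.90 and 12.0 copies, against a median of 1.20 over 19847 genes with an annotated 3′ UTR, and each of the 5 values lay above those of at least 98.6% of these genes. The median gene held 1 copy in a 3′ UTR of 843 bases, so the count of Il3 was at the median and its density comes from its short annotated UTR. The densest stretch of 30 bases is shown for each gene, with ATTTA in capitals. It is shown because each of the 5 densities is high although the genes differ widely in the share of cells that produced them. The stretches lie, in GRCm38 and in the order printed, at chr11:54247325-54247354 (minus strand), chr5:30019684-30019713 (plus strand), chr13:56479326-56479355 (minus strand), chr11:54265303-54265332 (minus strand) and chr3:37121039-37121068 (minus strand).
Csf2: taaatATTTATTTATTTATTTATTTAtttt
Il6: atttttaATTTAttgataATTTAaataagt
Il9: tgctATTTAttctATTTAttgaATTTAcaa
Il3: atgccatcaaatgtcttatcaATTTAtcta
Il2: tATTTATTTAaatATTTAactttaATTTAt
The copies of Csf2 overlap in an unbroken run of 5, those of Il9 are spaced, and those of Il2 comprise 2 that overlap and 2 that are spaced. The single copy of Il3 was counted in the 3′ UTR as GENCODE ends it, and RefSeq extends that end by 218 bases, which were not searched.

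Csf2 (ENSMUSG00000018916, chr11:54247271-54249667, minus strand) and Il3 (ENSMUSG00000018914, chr11:54265303-54267277, minus strand) are neighbours, with 15635 bases between them. Il6 (ENSMUSG00000025746) lies at chr5:30013114-30019981 on the plus strand, Il9 (ENSMUSG00000021538) at chr13:56479277-56482246 on the minus strand and Il2 (ENSMUSG00000027720) at chr3:37120523-37125959 on the minus strand. Csf2 overlaps Gm12223 and Il2 overlaps Adad1, each on the opposite strand, and these held 6 and 0 reads over all cells, against 183448 reads of Csf2 and 516 of Il2. With the shorter GENCODE end of Il3, reads of a 3′ library beyond that end may not have been counted for it.

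The 150 bases before the RefSeq starts of Il6 and Il9 are shown because these 2 windows hold an NF-kB motif, GGG followed after 2 bases of any kind by TTTCC, which is present on either strand in 0.925% of 32851 windows of this length. Capitals mark matches to this motif, to TGANTCA (AP-1, in 4.24% of windows), to GGAAA (the core of NFAT motifs, in 37.6%) and to GATAA (GATA, in 13.3%), searched on both strands, and a match to GGAAA, read on the other strand as TTTCC, lies inside each match to the NF-kB motif. A STAT motif and TATAAA were also searched and had no match in these 2 windows. The windows are chr5:30012964-30013113 (plus strand) and chr13:56482258-56482407 (minus strand) of GRCm38.p6, printed in the direction of the gene.
Il6: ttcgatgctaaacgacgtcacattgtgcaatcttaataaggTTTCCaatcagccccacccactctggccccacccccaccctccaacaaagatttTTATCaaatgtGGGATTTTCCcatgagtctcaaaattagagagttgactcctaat
Il9: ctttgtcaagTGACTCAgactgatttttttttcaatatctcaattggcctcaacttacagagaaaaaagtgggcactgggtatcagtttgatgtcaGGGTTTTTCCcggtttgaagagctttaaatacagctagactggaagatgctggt
The NF-kB match begins 44 bases before the start in Il6 and 54 bases before it in Il9. No NF-kB match was present in the windows of Il3, Il2 and Csf2. The window of Csf2 ends 232 bases upstream of the start that GENCODE gives, so it does not cover the bases next to that start. Matches are letters in a window and were not measured as binding.

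A cell was called producing for a gene when it held at least 100 reads per 1000000 gene reads (CPM) and at least 1% of the reads of the highest cell of its pool. A pool is taken here as the 5 or 6 cells of 1 state on 1 of the 2 dates in the titles of each index, 22 pools in all. Libraries were mixed in sets of 5 or 6 before tagmentation, but no label names these sets. The pool of each cell was therefore inferred. The second condition was set because reads can carry over between libraries of a pool. Of 42 cells that did not produce Il9 in pools with a producer, 35 (83.3%) held an Il9 read, against 5 of 53 (9.43%) in pools without a producer, and the 33 cells with a read in pools whose highest cell reached 1000 Il9 reads held a median of 0.0962% of that cell's reads. For Csf2 the corresponding non-producers with a read were 16 of 24 and 1 of 5, and 12 of them held a median of 0.403% and up to 0.783% of the reads of the highest cell, nearer to the limit of 1%. These non-producers were defined with the pool limit itself, and a pool is also 1 state on 1 date, so pool and state cannot be told apart here. Of the 120 cells, 3 of the IL5 index held 65, 73 and 2152 gene reads and were left out of the shares. The other 117 held 50723 to 785198 gene reads.

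Over the 117 cells, Csf2 was produced by 88 (75.2%), Il6 by 56 (47.9%), Il9 by 22 (18.8%), Il2 by 3 (2.56%) and Il3 by 1 (0.855%). Before stimulation the 10 cells comprised 1 producer of Csf2 and 1 of Il2. In the 64 transition cells the producers were 59 for Csf2 (92.2%), 37 for Il6 (57.8%), 12 for Il9 (18.8%), 2 for Il2 and 0 for Il3. In the 22 activated cells they were 15 for Csf2 (68.2%, 45.1 to 86.1%), 16 for Il6 (72.7%, 49.8 to 89.3%), 10 for Il9 (45.5%, 24.4 to 67.8%), 1 for Il3 and 0 for Il2, which allows a share of up to 15.4%. In the 21 silent cells they were 13 for Csf2 (61.9%), 3 for Il6 (14.3%) and 0 for Il9 (up to 16.1%). Csf2 thus had the highest share of producers of the 5 genes in transition and silent cells, and Il6 and Csf2 had close shares in activated cells. That closeness rests on the pool limit, which took out 3 activated cells of each index for Csf2 and 0 for Il6. Il6 had its lowest share of the stimulated states in silent cells, and Il9 had its highest share in activated cells.

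**Figure D1:**
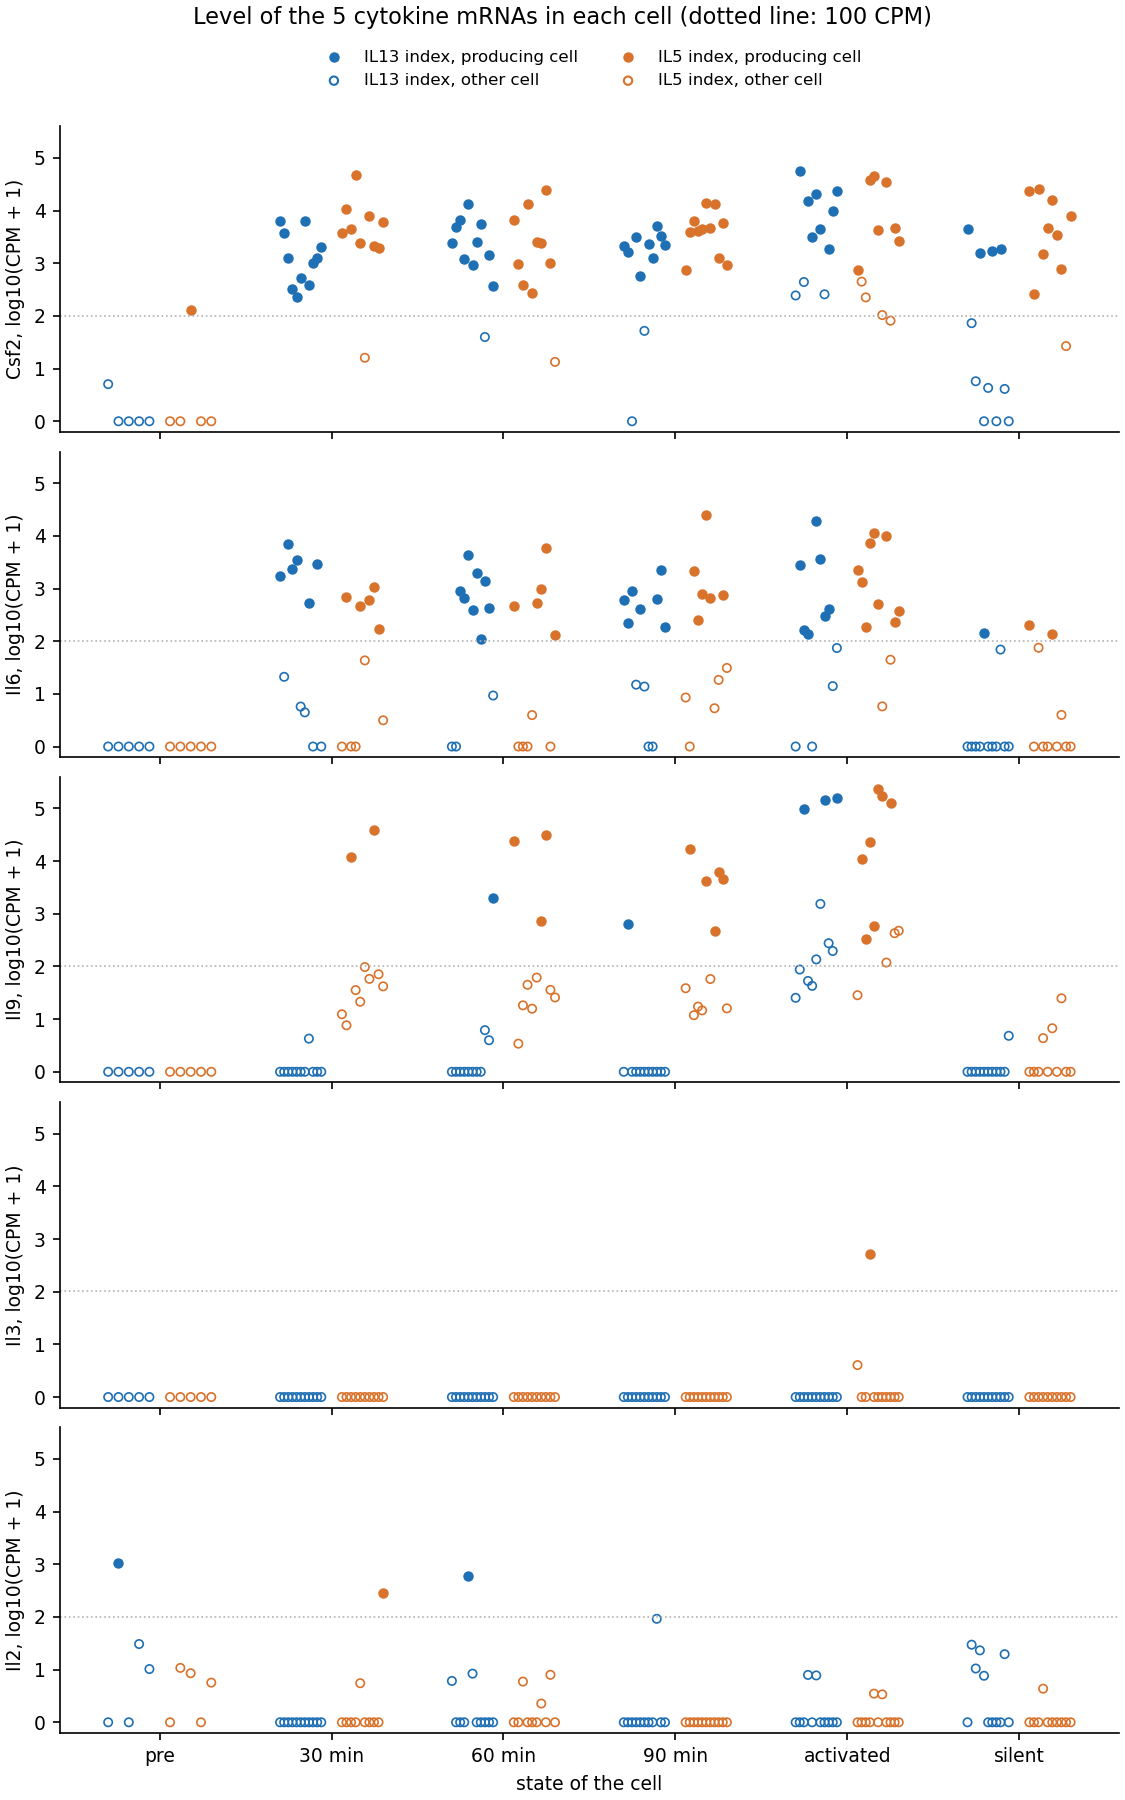
Level of each of the 5 mRNAs in each of the 117 cells (y axis, log10 of CPM + 1) by state (x axis) for the IL13 index (blue) and the IL5 index (orange), with filled points for producing cells. Most Csf2 points of the transition and activated columns are filled, while 4 of 11 are filled in silent cells of the IL13 index. The highest Il9 points, up to 229067 CPM, lie in the activated columns, and Il3 and Il2 have 1 and 3 filled points.

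Csf2 mRNA was nearly absent before stimulation and present in most cells at 30 min. In the IL13 index the 5 pre cells held 4.06, 0, 0, 0 and 0 CPM, and in the IL5 index 0, 0, 128, 0 and 0 CPM. The lowest, median and highest cells of the IL13 index held 233, 1251 and 6457 CPM at 30 min, 38.8, 2468 and 13132 at 60 min, and 0, 2147 and 5139 at 90 min. Every cell at 30 min lay above every pre cell in this index. In the IL5 index the corresponding values were 15.1, 4077 and 47310 CPM at 30 min, 12.4, 1728 and 24332 at 60 min, and 752, 4443 and 14196 at 90 min, and 1 cell each at 30 and 60 min lay within the range of the pre cells.

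The activated cells all held Csf2 reads, at widely spread levels. They held 244, 4504 and 56670 CPM (lowest, median and highest) in the IL13 index and 80.2, 2696 and 44584 CPM in the IL5 index. In each index 1 cell held more than 35% of the group's Csf2 reads, 35.9% in the IL13 index and 39.5% in the IL5 index. The share of producers fell short of that at 30 min in both indexes, 8 of 11 against 11 of 11 in the IL13 index and 7 of 11 against 9 of 10 in the IL5 index, while the group level was higher, 13159 against 2051 CPM and 12102 against 7081 CPM. The intervals of the shares overlapped, 39.0 to 94.0% against 71.5 to 100% and 30.8 to 89.1% against 55.5 to 99.7%. The lower share in activated cells rested on the pool limit, since 3 cells of each index with 100 CPM or more lay under 1% of the highest cell of their pool. Without that limit 11 of 11 and 10 of 11 activated cells were producers.

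Silent cells of the IL13 and IL5 index lay far apart in Csf2. Cells in which no IL-13 secretion was seen held 0, 4.75 and 4561 CPM (lowest, median and highest), with 4 of 11 producers (36.4%, 10.9 to 69.2%). Cells in which no IL-5 secretion was seen held 25.8, 4077 and 25975 CPM, with 9 of 10 producers (90.0%, 55.5 to 99.7%). The group levels were 873 and 7826 CPM. The intervals of the shares overlapped, the difference between the indexes was not tested, and index and title date cannot be told apart. Of the 13 silent Csf2 producers, 5 also produced Il13 and 5 produced Il5 by the same rule. Csf2 was made without Il13 by 4 of 4 producers in the IL13 index and 4 of 9 in the IL5 index. It was made without Il5 by 2 of 4 and 6 of 9. Silent cells were picked for no secretion of their index cytokine, so the counts for that cytokine follow in part from the selection.

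Il6 mRNA was at 0 reads in all 10 pre cells. The shares of producers in the IL13 index were 6 of 11 at 30 min, 8 of 11 at 60 min, 7 of 11 at 90 min, 7 of 11 when activated and 1 of 11 when silent. In the IL5 index they were 5 of 10, 5 of 10, 6 of 11, 9 of 11 and 2 of 10. The order of the stimulated secreting groups was not resolved, since their intervals overlapped throughout, for example 23.4 to 83.3% at 30 min and 30.8 to 89.1% when activated in the IL13 index. Silent cells lay lowest in both indexes, with 0.230 to 41.3% and 2.52 to 55.6%.

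Levels of Il6 in producers were mostly below 1000 CPM, and a few cells held most of the reads. Producers had a median of 2616 CPM at 30 min, 768 at 60 min, 594 at 90 min and 410 when activated in the IL13 index. In the IL5 index the medians were 599, 533, 779 and 1341 CPM, so the activated median was below that at 30 min in the IL13 index and above it in the IL5 index. The highest cell held 68.9% of the Il6 reads of the activated cells of the IL13 index (18806 CPM) and 85.8% of those at 90 min in the IL5 index (24853 CPM). The 3 silent producers held 140, 137 and 203 CPM, near the limit of 100 CPM. Of all 56 producers 21 reached 1000 CPM, and none of these was silent.

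Il9 mRNA was at 0 reads in the 10 pre cells and at very high levels in a few activated cells. In the IL13 index 0 of 11 cells produced it at 30 min, 1 of 11 at 60 min (1990 CPM), 1 of 11 at 90 min (642 CPM) and 3 of 11 when activated, with 96860, 145130 and 154582 CPM. In the IL5 index 2 of 10 cells produced it at 30 min (11854 and 39596 CPM), 3 of 10 at 60 min, 5 of 11 at 90 min and 7 of 11 when activated. These 7 held 325, 580, 11046, 23213, 124247, 171144 and 229067 CPM. No silent cell of either index was a producer, and their highest level was 23.9 CPM.

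Of the transition cells, 10 of 31 produced Il9 in the IL5 index (32.3%, 16.7 to 51.4%) and 2 of 33 in the IL13 index (6.06%, 0.743 to 20.2%). The intervals overlapped, the difference was not tested, and the indexes also differ in their dates and pools. The activated producers were found on both dates, 1 and 2 cells in the IL13 index and 4 and 3 in the IL5 index. Their levels differed by date in the IL5 index, where the 4 cells of the first date held at most 23213 CPM and the 3 of the second at least 124247 CPM. All 12 activated cells called not producing held Il9 reads, and 7 of them held 100 CPM or more, up to 1538 CPM in a cell whose pool held a cell with 154582 CPM. With no pool limit the activated producers were 7 of 11 and 10 of 11.

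**Figure D2:**
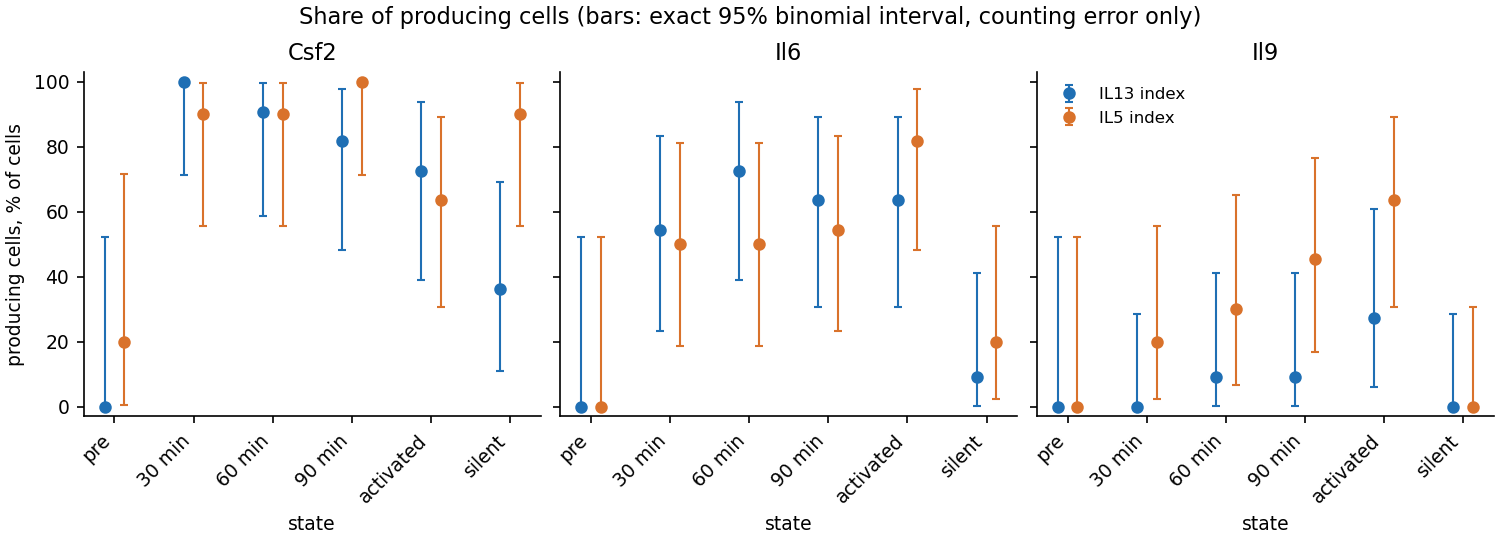
Share of producing cells (y axis, % of cells, with exact 95% intervals of counting error) of Csf2, Il6 and Il9 by state (x axis) and index. For Csf2 the silent points lie at 36.4% (IL13 index) and 90.0% (IL5 index), for Il6 the silent points are the lowest of the stimulated states, and for Il9 the activated points, 27.3% and 63.6%, are the highest.

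Il3 reads were found in 2 of the 117 cells, both activated cells of the IL5 index from the same pool. Replicate 4 held 161 reads (524 CPM) and replicate 1 held 1 read. The cell with 161 reads also held 37746 CPM of Csf2, the neighbour of Il3, 7278 CPM of Il6 and 23213 CPM of Il9, and it was the only cell to produce 4 of the 5 genes. Its Csf2 level was the second highest of the 11 activated cells of the IL5 index, and the 3 cells of the series with more Csf2 (44584, 47310 and 56670 CPM) held 0 Il3 reads.

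Il2 mRNA was rare, with 1 producer before stimulation and 2 in the transition groups. The highest cell was a pre cell of the IL13 index with 175 reads (1037 CPM), while the other 4 pre cells of this index held 0, 0, 29.6 and 9.26 CPM and the 5 of the IL5 index held 0, 9.79, 7.55, 0 and 4.67 CPM. The other producers were a cell of the IL13 index at 60 min (597 CPM) and a cell of the IL5 index at 30 min (282 CPM). The former held the highest Csf2 (13132 CPM) and Il6 (4250 CPM) levels of its group. A cell of the IL13 index at 90 min held 91.3 CPM, just under the limit. Of the non-producers of Il2, 3 of 12 in pools with a producer held a read (25.0%) and 19 of 102 in the other pools did (18.6%). By state, 6 of 10 pre, 9 of 64 transition, 4 of 22 activated and 6 of 21 silent cells held at least 1 read.

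Production of several of the genes in the same cell was frequent in the secreting states and rare in silent cells. At least 2 of the 5 genes were produced by 6, 8, 6 and 8 of 11 cells at 30, 60 and 90 min and when activated in the IL13 index, and by 7 of 10, 4 of 10, 9 of 11 and 9 of 11 in the IL5 index. Over both indexes these were 40 of 64 transition cells (62.5%, 49.5 to 74.3%), 17 of 22 activated cells (77.3%, 54.6 to 92.2%) and 2 of 21 silent cells (9.52%, 1.17 to 30.4%), with 0 of 10 pre cells. At least 3 were produced by 11 cells, of which 8 were transition and 3 activated cells, and no cell produced all 5. The 2 silent cells both produced Csf2 and Il6 and belonged to the IL5 index.

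**Figure D3:**
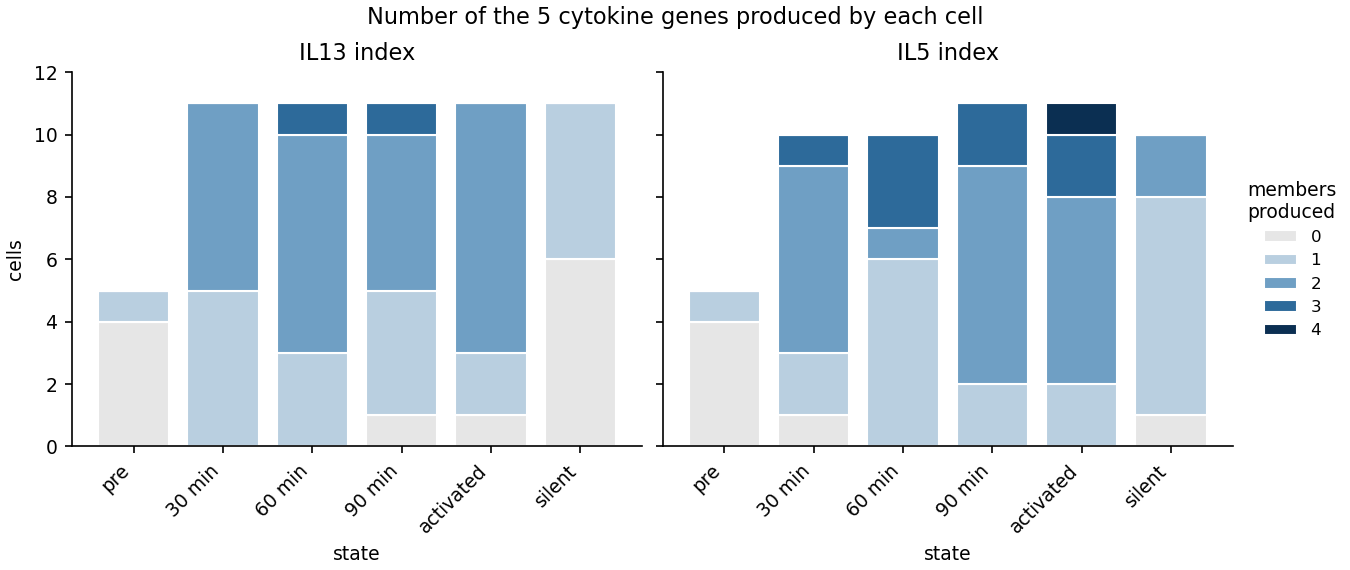
Number of cells (y axis) that produced 0 to 4 of the 5 cytokine genes, by state (x axis) and index. Shades for 2 or more genes fill 8 of 11 and 9 of 11 activated cells and 0 of 11 and 2 of 10 silent cells of the IL13 and IL5 index.

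Csf2 with Il6 was the most frequent combination, in 26 transition and 9 activated cells with these 2 genes alone. Of 37 transition producers of Il6, 34 produced Csf2 (91.9%), against 25 of the 27 that did not produce Il6. In activated cells 12 of 16 Il6 producers made Csf2, against 3 of 6 others. Over the levels, log2(CPM + 1) of Csf2 and Il6 correlated with Pearson's r of 0.52 and Spearman's rho of 0.56 across the 22 activated cells and −0.01 and 0.10 across the 64 transition cells. These are descriptions over cells that share pools and depth, and within activated cells r was 0.41 in the IL13 index and 0.82 in the IL5 index (n = 11 each).

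Il9 producers made Csf2 throughout the transition groups and in fewer than 5 of 10 cases when activated. All 12 transition producers of Il9 produced Csf2, and 7 of them also Il6. Of the 10 activated producers of Il9, 4 produced Csf2 (40.0%), against 11 of the 12 activated cells without Il9 production (91.7%). The Il9 producers held 80.2 to 44584 CPM of Csf2 with a median of 443, and the other 12 held 244 to 56670 CPM with a median of 4546, so the ranges overlapped. Of the 7 activated cells below the limit for Csf2, 5 held at least 10000 CPM of Il9, against 3 of 15 Csf2 producers. The first title dates of the 2 indexes are different days, as are the second. With the first dates of both indexes merged, and likewise the second, 2 of 5 Il9 producers made Csf2 in each case. The others making Csf2 were 4 of 5 and 7 of 7. The single dates held 1 and 2 activated Il9 producers in the IL13 index and 4 and 3 in the IL5 index. On each single date a smaller share of Il9 producers than of the others made Csf2, but these are too few cells to compare dates. The lower share in Il9 producers depended on the pool limit. With that limit removed, 16 of 17 Il9 producers and 5 of 5 others were called producing for Csf2. With a limit of 1000 CPM and the pool limit the shares were 37.5% and 78.6%, and with a pool limit of 5% they were 37.5% and 71.4%. The part of reads carried over within a pool in these calls was not tested. The correlation of Csf2 and Il9 across the 22 activated cells was weak, with r = −0.32 and rho = −0.21.

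**Figure D4:**
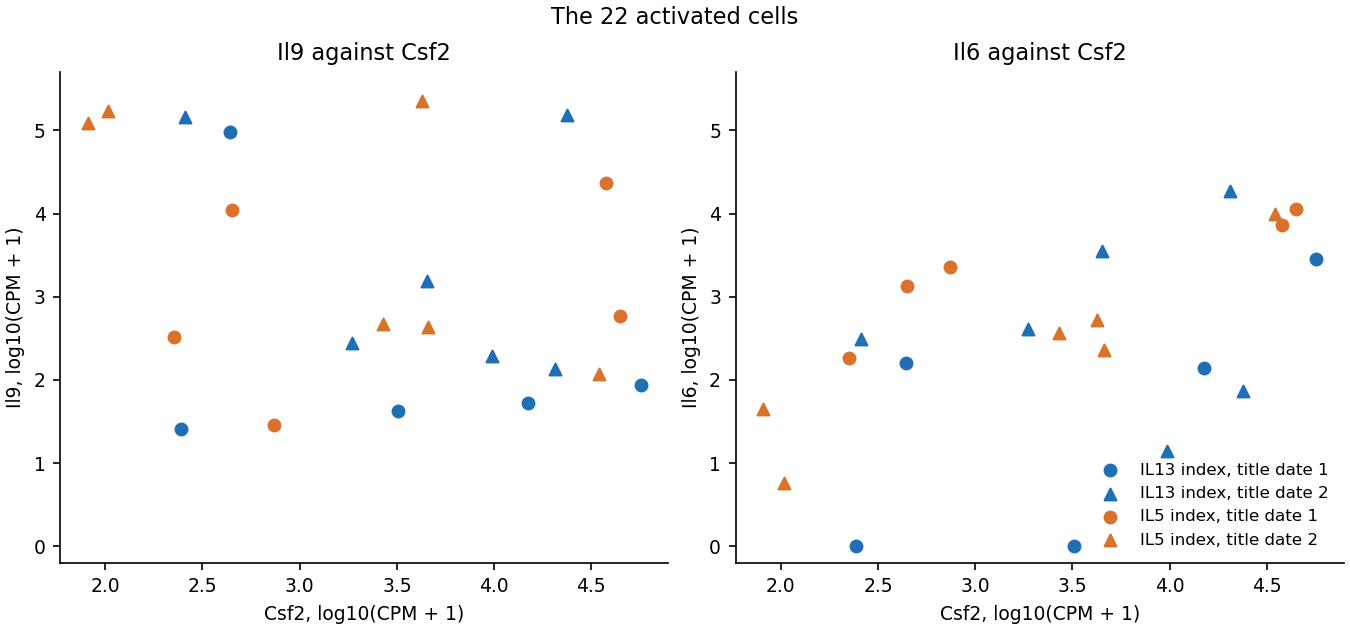
Il9 (left) and Il6 (right) against Csf2 in the 22 activated cells, all as log10(CPM + 1), with colour for the index and shape for the title date. On the left, 5 of the 8 cells with at least 10000 CPM of Il9 lie among the 7 cells that were below the limit for Csf2, and on the right Il6 is higher in cells with more Csf2 (r = 0.52 on log2(CPM + 1)).

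Most transition and activated cells, which were picked for secretion, produced the index cytokines whether or not they produced Csf2, Il6 or Il9. Of these cells, Il5 was produced by 22 of 22 with and 58 of 64 without Il9, by 51 of 53 with and 29 of 33 without Il6, and by 68 of 74 with and 12 of 12 without Csf2. Il13 was produced by 20 of 22 and 55 of 64, by 49 of 53 and 26 of 33, and by 66 of 74 and 9 of 12, respectively. Over all states Il4, another type 2 cytokine, was produced by 12 of 22 Il9 producers, 27 of 56 Il6 producers and 35 of 88 Csf2 producers. By group, Il4 producers were 0% of cells (pre cells of the IL13 index) to 54.5% (90 min and activated cells of the IL5 index). The Il4 counts were not set against the cells without each gene, so no relation is read from them.

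The 5 genes together took a large part of the reads of some activated cells. Their share of a cell's gene reads had a median of 1.52% and a highest value of 17.8% in activated cells of the IL13 index, and of 4.48% and 23.4% in the IL5 index. In the transition groups the medians were 0.212 to 0.751%, and in silent cells 0.0101% (IL13 index) and 0.408% (IL5 index). Il9 alone held 22.9% of the reads of the highest cell. A share of this size lowers the CPM of the other genes of that cell, and with totals that leave out the 5 genes the activated and silent shares of producers stayed within their intervals.

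**Figure D5:**
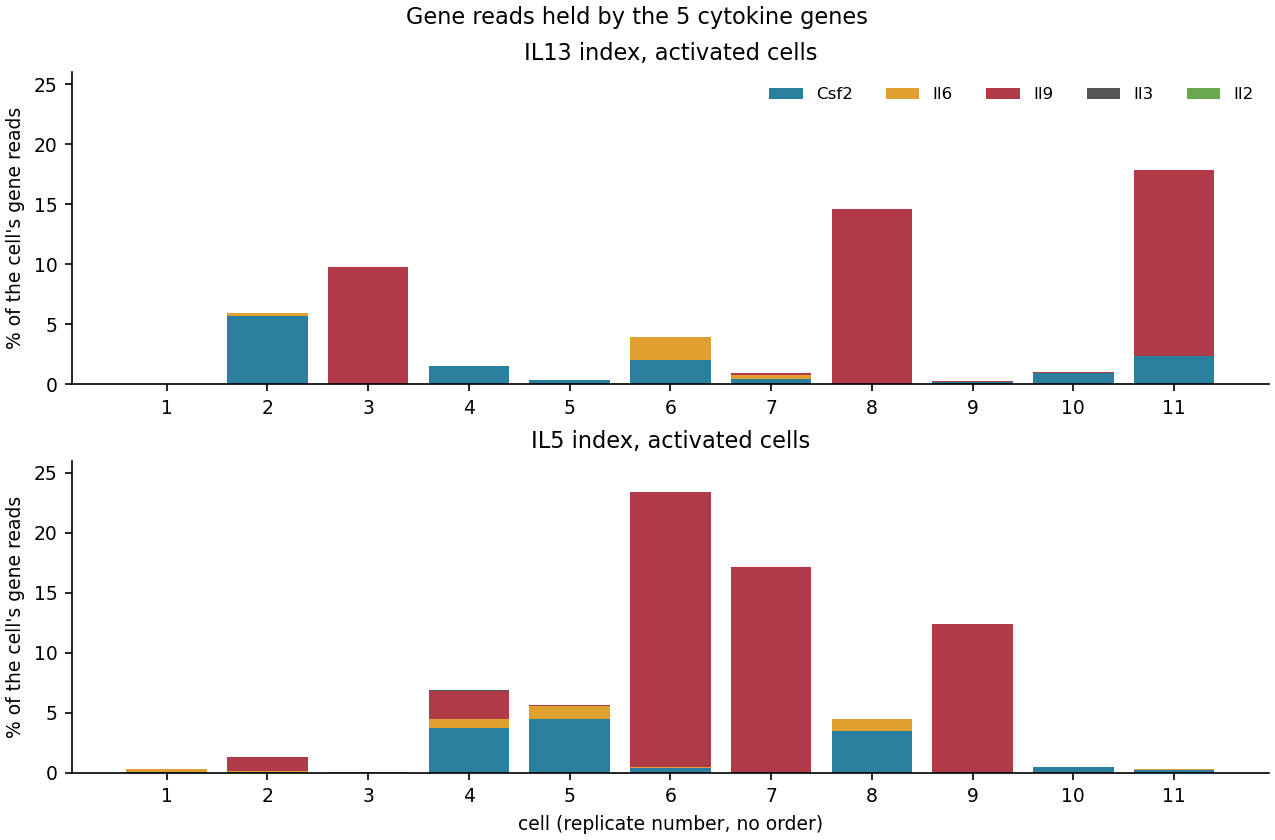
Percent of gene reads (y axis) held by Csf2, Il6, Il9, Il3 and Il2 in each of the 11 activated cells (x axis, replicate number) of the IL13 index (top) and the IL5 index (bottom). The 6 cells from 9.75 to 23.4% are filled mainly by Il9, and the 6 cells from 1.52 to 6.88% mainly by Csf2.

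The ratios of group levels, in comparisons that share groups with each other, were set beside all genes with at least 50 CPM in 1 of the groups compared. In activated against silent cells of both indexes, Il6 and Il9 reached 50 CPM only in the activated cells, so the filter itself favoured their call. With no filter, 3 of 4 members were at least 4-fold higher in each index, beside 17.8% (IL13 index) and 17.4% (IL5 index) of genes. With the filter, 9.48% of 3681 genes were at least 4-fold higher in activated cells of the IL13 index. Of the 5 genes the 3 that reached 50 CPM all were. Csf2 was higher by 3.91 on the log2 scale (counting interval 3.85 to 3.98), Il6 by 7.35 (6.91 to 7.83) and Il9, with 141312 reads against 1, by 16.84 (14.36 to 22.14), while the median of all genes was −0.31. On leaving out any 1 cell Csf2 ranged from 3.40 to 4.48 and Il6 from 5.80 to 8.30, wider than the counting intervals, and Il6 was at 4.83 on the first date and 8.34 on the second. With its 1 silent read set to 3, Il9 was higher by 15.25, with 14.46 to 15.44 on leaving out any 1 cell, 12.32 on the first date and 15.13 on the second. In the IL5 index 6.13% of 3260 genes were at least 4-fold higher and 2 of the 3 genes tested were, Il6 by 6.40 (6.13 to 6.68) and Il9 by 14.04 (13.20 to 15.04). On leaving out any 1 cell Il6 ranged from 5.84 to 7.55, highest without silent replicate 1, and Il9 from 13.31 to 15.75, highest without silent replicate 9, which held 8 of the 11 silent reads. By date, with groups under 3 reads set to 3, Il9 was at 11.73 and 13.83 and Il6 at 6.53 and 6.61. Csf2 was higher by 0.63 only, and by 0.07 without the activated cell of replicate 5. Il3 was at least 44.4-fold higher in activated cells against 0 reads in silent cells, 161 of its 162 reads from the cell described above, and did not reach 50 CPM. Il2 was below 50 CPM in both indexes, with 4 reads against 18 in the IL13 index and 2 against 1 in the IL5 index.

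At 30 min against pre, where 22.3% of genes in the IL13 index and 22.6% in the IL5 index were at least 4-fold higher, Csf2 and Il6 passed in both indexes and Il9 in the IL5 index. All pre cells came from the first title date of their index, while the other groups pool both dates. Csf2 had 25148 reads against 34 in the IL5 index, a log2 ratio of 7.98 that ranged from 7.25 to 11.13 on leaving out any 1 cell. In the IL13 index it had 5490 reads against 1, a log2 ratio of 10.95 (counting interval 8.47 to 16.25). Il6 was at least 449-fold and at least 130-fold higher than in pre cells with 0 reads. Il9 was at least 2187-fold higher in the IL5 index, where 15365 of 19220 reads came from 1 cell, and it had 1 read against 0 in the IL13 index. Leaving it out lowered the log2 ratio, computed with 0 reads set to 3, from 11.09 to 8.94. On the first date alone, with groups under 3 reads set to 3, the log2 ratios of Csf2 were 9.47 (IL13 index) and 8.66 (IL5 index), those of Il6 9.87 and 6.74, and that of Il9 in the IL5 index 9.93. Il2 was at least 168-fold lower in the IL13 index, where 22.7% of genes were at least 4-fold lower, with 0 reads against 182, and without the pre cell that held 175 of them its log2 ratio, with 0 reads set to 3, was −2.97.

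Against pre cells, silent cells were at least 4-fold higher in 27.1% (IL13 index) and 22.0% (IL5 index) of genes, and of the members that reached 50 CPM Csf2 was called in both. Its log2 ratio was 9.72 (7.24 to 15.02) in the IL13 index, with 2310 reads against 1, and 8.12 (7.64 to 8.65) in the IL5 index, where it ranged from 7.70 to 11.27 on leaving out any 1 cell, highest without pre replicate 3, which held all 34 pre reads. Il2 was 4-fold lower in silent cells of the IL13 index, as were 17.6% of genes, with a log2 ratio of −4.79 that became −0.37 without the same pre cell. In activated against pre cells, with 22.1% and 20.6% of genes at least 4-fold higher, Csf2, Il6 and Il9 were called in both indexes. On the first date alone the log2 ratio of Il6 was 7.72 in place of 9.67 in the IL13 index, and that of Il9 was 12.40 in place of 13.80 in the IL13 index and 11.31 in place of 14.58 in the IL5 index, each against 0 reads set to 3. Il2, in a comparison with 25.2% of genes at least 4-fold lower, had a log2 ratio of −7.24 in the IL13 index, 4 reads against 182, of which 175 came from the single pre cell. Without that cell the log2 ratio of Il2 was −2.81.

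From 30 min to the activated state, 14.0% (IL13 index) and 7.77% (IL5 index) of genes were at least 4-fold higher. Csf2 and Il9 were called in the IL13 index and Il6 and Il9 in the IL5 index, so that Il9 was called in both with both dates pooled. Csf2 was higher by 2.68 (2.64 to 2.72) and 0.77 (0.75 to 0.80), and Il9 by 16.85 (14.38 to 22.16; 141312 reads against 1) and 3.48 (3.46 to 3.50). On leaving out any 1 cell Csf2 ranged from 2.17 to 3.10 in the IL13 index. The IL5 index gave 0.21 without activated replicate 5, and its Csf2 level at 30 min was 4279 CPM in place of 7081 CPM without the highest cell there. With the 1 read of Il9 set to 3, its value in the IL13 index was 15.27, with 14.47 to 15.46 on leaving out any 1 cell, 12.45 on the first date and 15.09 on the second. In the IL5 index the value of Il9 was 1.38 on the first date, which is under 4-fold, and 3.70 on the second, and it ranged from 2.75 to 5.63 on leaving out any 1 cell. Il6 was higher by 3.26 (3.17 to 3.35) in the IL5 index, with 4.23 on the first date and 2.20 on the second. In the IL13 index its value was 0.86 (0.80 to 0.91), but −2.15 on the first date and 2.90 on the second, and −0.69 on leaving out activated replicate 6, so no direction was assigned to it.

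Lists of related genes were described in activated against silent cells, where 9.48% of all genes were 4-fold higher and 21.8% 4-fold lower in the IL13 index, and 6.13% and 11.9% in the IL5 index. None of the receptors of the 5 cytokines was 4-fold higher in either index, of 3 tested of 10 in each. Il2ra, the high-affinity chain of the IL-2 receptor, was higher by 1.86 in the IL13 index and by 1.68 in the IL5 index. Of 30 transcription regulators known to act on such genes, 5 of 20 tested were 4-fold higher and 4 lower in the IL13 index, and 2 of 16 higher and 0 lower in the IL5 index. The 2 that were higher in both were Irf4, a factor needed for Il9 transcription in T cells, with 363 reads against 0 (at least 100-fold) and a log2 ratio of 2.21, and Rela, a subunit of NF-kB, with 4.44 and 3.29. In the IL5 index Rela was at 89.2 CPM in activated, 9.13 in silent and 81.7 in pre cells, so activated and pre cells were close. In the IL13 index it was at 73.6, 3.40 and 0 CPM. The median of the regulators was −0.03 and −0.10, close to the medians of all genes (−0.31 and −0.13).

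Among 20 other cytokines, 3 of 7 tested were 4-fold higher in the IL13 index (Il13, Areg and Il22) and 1 of 5 in the IL5 index (Il5), where Tnf was 4-fold lower. None of these was 4-fold higher in both indexes. Il13 itself was higher by 8.21 in the IL13 index and by 0.66 in the IL5 index, and Il5 by 1.92 and 2.60, so each index cytokine differed most where it had been imaged. Of 10 factors that bind AU-rich or stem-loop elements of cytokine mRNAs, 0 of 4 tested were 4-fold higher in either index. Zfp36l2, of the tristetraprolin family that promotes decay of mRNAs with ATTTA elements, and Rc3h1 (Roquin-1) were 4-fold lower in the IL5 index, with log2 ratios of −5.91 and −2.90, while that of Zfp36l2 was 0.34 in the IL13 index.

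The genes whose level followed each member most closely over the 117 cells were named among 2617 genes by Pearson's r of log2(CPM + 1). For Csf2 they were Gadd45b (0.74), a stress-induced gene, Batf (0.66), an AP-1 family factor, Il13 (0.64), Furin (0.61), a convertase, and Nfkbia (0.58), the inhibitor of NF-kB. For Il6 they were Il13 (0.56), Stat5a (0.50), which carries IL-2 signals, Il5 (0.49), Pim2 (0.45) and Mir155hg (0.44), the host of miR-155. For Il9 they were Fbxl21 (0.53), Pdzk1ip1 (0.50), Mrps6 (0.48), Tnfrsf9 (0.45), a costimulatory receptor, and Tma16 (0.45). Within the 22 activated cells the 5 genes named for Csf2 had r of 0.16, −0.07, 0.33, 0.27 and 0.38 in the same order, those named for Il6 had 0.47, 0.39, −0.05, 0.46 and 0.18, and those named for Il9 had 0.64, 0.56, 0.02, 0.19 and 0.21. For Il3 (highest Irf4, 0.29) and Il2 (highest Ntan1, 0.39) the values rest on few cells. Correlations across cells are given with no test.

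Fbxl21, the first of the Il9 list, lies 40225 bases upstream of Il9 and is the nearest annotated gene on that side, at chr13:56522472-56537898 on the opposite strand. It held a read in 20 of 22 Il9 producers (median 99.6, highest 1327 CPM) and in 22 of 95 other cells (median 0, highest 798 CPM). Within the activated cells r was 0.64. Il9 and Fbxl21 do not overlap, and whether pooling of the libraries has a part in this relation was not tested.

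All 12 markers of ILC2, the labelled type, were detected, with a summed group level of 5754 to 12906 CPM, of which Ly6a (Sca-1), used in the sort, made up 2345 to 6586 CPM by group. Gata3, Il1rl1 (the IL-33 receptor) and Rora were read in 115, 112 and 114 of the 117 cells, and Areg, Il7r and Thy1 in 14, 46 and 53. All 4 B cell markers, 5 of 6 myeloid and 5 of 6 stromal or fat markers were at 0 reads, and the summed group levels of these lists stayed at or under 38.3 CPM. Of the mast cell or basophil list, whose cells also make several of these cytokines, 7 of 9 markers, among them the proteases Mcpt4, Mcpt8 and Cma1, were at 0, and the summed group level was 0 to 326 CPM. The other 2 were Fcer1a, a chain of the IgE receptor, read in 15 cells, and Cpa3, a protease, read in 2. Per cell the sum reached 454 CPM in the activated Il9 producers and 2093 CPM in the other activated cells, and its part in the results was not tested. Of the T cell list Cd4, Cd8a and Cd28 were at 0, while Trbc2, a T cell receptor constant segment, was read in 97 of 117 cells (262 to 1362 CPM by group) and Cd3g in 26, with up to 1195 CPM in pre cells of the IL5 index. The sum of the 9 markers was 327 to 1884 CPM, highest in pre cells of the IL5 index and lowest in its activated cells. In the 10 activated Il9 producers this sum was 0 to 943 CPM, and in the other 12 activated cells 0 to 3561 CPM.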

How the data were processed

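Single mouse ILC2 were sequenced with SMART-Seq v4 3′ DE libraries, 1 library per cell, and 5 or 6 libraries were pooled evenly before tagmentation. The deposited tables hold unnormalized counts of reads for each gene. The authors aligned reads to GRCm38 with TopHat (TopHat2 in the submitters' processing notes) and counted them by HTSeq. Which strand setting and annotation release they used is not given in the sources used here. The 5 HTSeq summary entries (38.0% of tallied reads) were left out. The 120 cells held 65 to 785198 gene reads each (median 254001). Groups came from the source names, and the pool of a cell was inferred from its state and title date.

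CPM used total gene reads. Shares of producing cells, with Clopper-Pearson intervals, used the 117 cells with at least 10000 gene reads. Group CPM used summed reads, and a group under 3 reads was set to 3 reads for a fold given as at least. Where 1 or 2 reads were present, the log2 ratio is printed without that floor. Counting intervals of ratios were exact binomial. No comparison was tested, since each group is 1 sample of cells. The named genes of the lists were those at least 4-fold higher in activated against silent cells of both indexes, at most 4 per list, and the 5 genes with the highest correlation to each member were taken among genes with a mean of at least 50 CPM over groups and a read in at least 20% of cells. Other listed genes were named after their values were seen. The members and lists were chosen with earlier results of these data known. ATTTA was counted in the 3′ UTR of the transcript with the longest coding sequence of each gene (GENCODE, GRCm38), and promoter windows came from RefSeq (GRCm38.p6), which held all 5 genes. Scripts were tested on simulated data. Scaling factors of the alternatives came from edgeR 4.0.16 and DESeq2 1.42.0 (R 4.3.3). All else was computed in Python 3.11.15 (scipy 1.17.1, pandas 2.3.3, numpy 2.4.6, matplotlib 3.10.9).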

Additional observations from a re-analysis of the deposited data

Results flagged for a closer look

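In the pre groups of 5 cells, 2 of 4 sets of values of a member held a cell far from the others on the scale of log2(CPM + 1) by Dixon's criterion. With the other 4 cells at 0 that criterion is met by any value above 0, even a single read, so its usual rate of chance flags, about 1 in 20 groups, does not apply and nothing is read from it. Csf2 was at 4.06 CPM, a single read, in replicate 1 of the IL13 index and at 128 CPM, 34 reads, in replicate 3 of the IL5 index, with 0 reads in the 4 other pre cells of each index. Il2 at 30 min against pre moved in opposite directions in the indexes, with a log2 ratio of −7.40 in the IL13 index, 0 reads set to 3 against 182, and 2.92 in the IL5 index, 133 reads against 6. The difference was not tested. It rests on 1 cell in each index: 175 of the 182 reads were those of 1 pre cell, and 98.5% of the 133 reads were those of 1 cell at 30 min, without which the ratios were −2.97 and −2.35. On the first date, from which all pre cells came, the ratio of the IL5 index was −1.36.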

How the results depend on the processing

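The shares of producers depended most on what was called producing. No paired test was made, since no comparison was tested. States other than pre share both dates of an index, and values by date are given in place of such a test. With at least 1 read, Csf2 was at 100% in activated cells of both indexes and in silent cells of the IL5 index and at 72.7% in silent cells of the IL13 index, Il9 at 100% in activated cells of both indexes, Il6 at 100% in those of the IL5 index and Il2 at 45.5% in silent cells of the IL13 index, and 2 or more genes were held by 100% of activated cells of both indexes and 54.5% of silent cells of the IL13 index. Without the pool limit, activated producers were 100% and 90.9% for Csf2 and 63.6% and 90.9% for Il9 (IL13 and IL5 index). With 1000 CPM, Il6 fell to 27.3% and 45.5% of activated and 0% of silent cells of both indexes, Il3 to 0%, and 2 or more genes to 36.4% and 45.5% of activated and 0% of IL5 silent cells. A pool limit of 5% put 2 or more genes at 45.5% in the activated IL5 index. On the first date alone Il6 and 2 or more genes were at 100% of activated and Csf2 at 100% of silent cells of the IL5 index, and on the second Il6 in silent cells of the IL13 index and Il3 were at 0%. Without any 1 cell, Il6 in silent cells of the IL13 index ranged from 0 to 10.0%, Il3 from 0 to 10.0% and Csf2 in silent cells of the IL5 index from 88.9 to 100%. The other 187 of 216 shares stayed within their intervals. Over the 55 log2 ratios of activated against silent cells under other scalings, dates or summaries, and 175 on leaving out 1 cell, none changed sign, and 43 and 128 stayed within the counting interval. With filters of 10 CPM and none, 3 of 3 and 3 of 4 members tested passed 4-fold in the IL13 index, beside 18.1% and 17.8% of all genes, and 3 of 4 each in the IL5 index, beside 15.6% and 17.4%. At 50 CPM they were 3 of 3 beside 9.48% and 2 of 3 beside 6.13%.

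These are few cells from a source described as pooled. Shares of 10 or 11 cells leave wide intervals, and cells of 1 pool share their preparation. Carry-over between libraries of a pool and low production by a cell cannot be told apart at levels under 1% of the highest cell of the pool. The comparison of Csf2 and Il9 in activated cells by alternative settings was added after the data were seen.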
